A study of Mus musculus with 8 samples.

Results

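ATP-binding cassette (ABC) transporters are membrane proteins that use the energy of ATP to move lipids, drugs, peptides, haem compounds and ions across membranes. They were taken here as the rows of the deposited expression table whose gene name starts with Abca, Abcb, Abcc, Abcd, Abce, Abcf or Abcg followed by a number, without Abca1 and Abcg1. This gave 48 of the 21959 genes in the table, with 15 in subfamily A, 10 in B, 10 in C, 4 in D, 1 in E, 3 in F and 5 in G. Below, the family means these 48 genes. ABC transporter genes that carry other names, such as Tap1, are not covered by any count or ranking given here. In the brain the efflux pumps of subfamilies B, C and G sit in the blood-brain barrier and the choroid plexus and return drugs to the blood or move them between blood and cerebrospinal fluid. Subfamily A handles lipids, subfamily D serves peroxisomes and lysosomes, and the E and F proteins carry no membrane part and act in translation.

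The study asked how isoliensinine, a bisbenzylisoquinoline alkaloid of lotus seed embryo, acts on sleep in mice. Polyadenylated RNA was sequenced from 4 libraries labelled isoliensinine (IsoL) and 4 labelled Model, whose treatment is given as PCPA (para-chlorophenylalanine, an inhibitor of serotonin synthesis). All are labelled WT genotype and brain. The design text speaks of female ICR mice, 7 days of dosing, IsoL doses of 12.5, 25 and 50 mg/kg, a pentobarbital injection once dosing had ended, and isolation of the hypothalamus. The labels do not say which dose was sequenced, whether IsoL mice also received PCPA, or whether each library came from its own mouse, so p-values measure only the spread between libraries, which may be technical. Untreated mice were not analysed here.

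Summed counts were 15731923 to 21620466 in IsoL and 14262836 to 15886850 in Model libraries, and 3 counts equal 0.138 to 0.210 CPM (counts scaled by library size). The Y-linked gene Ddx3y stood at 149 to 160 CPM in IsoL and 140 to 153 CPM in Model libraries, which goes against the stated female sex. All 10 neuron markers were measured, and their summed level was 6431 to 6813 CPM in IsoL and 6389 to 7169 CPM in Model. Hypothalamus markers summed to 156 to 259 CPM in IsoL and 289 to 335 CPM in Model, and the groups did not overlap. Choroid plexus markers stood apart in IsoL 1 and IsoL 2 (802 and 701 CPM), against 129 and 75.2 CPM in IsoL 3 and 4 and 76.6 to 80.3 CPM in Model. Model 2 differed most from the other libraries.

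No ABC transporter gene passed the test between the groups. Of the 48 genes, 35 had enough counts to be tested, and 0 of these reached an adjusted p under 0.05 in edgeR's quasi-likelihood test, where 0.275% of all 14536 genes tested did. By direction these were 0.117% higher and 0.158% lower. At an unadjusted p under 0.05 there were 3 members (8.57% of those tested), Abca4, Abca2 and Abcc4, all higher in IsoL, against 13.2% of all genes (6.44% higher and 6.78% lower). The median log2 change of the 35 was 0.04, against -0.0015 over all genes tested, with 21 members above and 14 below 0. DESeq2 called 1 member, Abca4, where it called 2.14% of all genes (1.11% higher and 1.03% lower). Limma voom with quality weights called 0, where it called 1.2% of all genes (0.55% higher and 0.654% lower). In bulk tissue, fewer cells of a type and less RNA per cell cannot be told apart.

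The intervals say how large a change could have gone unseen. For 20 of the 35 genes the 95% interval of the log2 change lay within 0.32 of 0 in both directions. For 30 genes the 95% interval of the fold change lay within 1.5-fold of no change in both directions, and for 34 within 2-fold. Abca4 was the exception to the last. The standard error of the log2 change ran from 0.04 for Abcc5 to 0.41 for Abcc12, with a median of 0.09, against 0.09 over all genes tested.

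**Figure D1:**
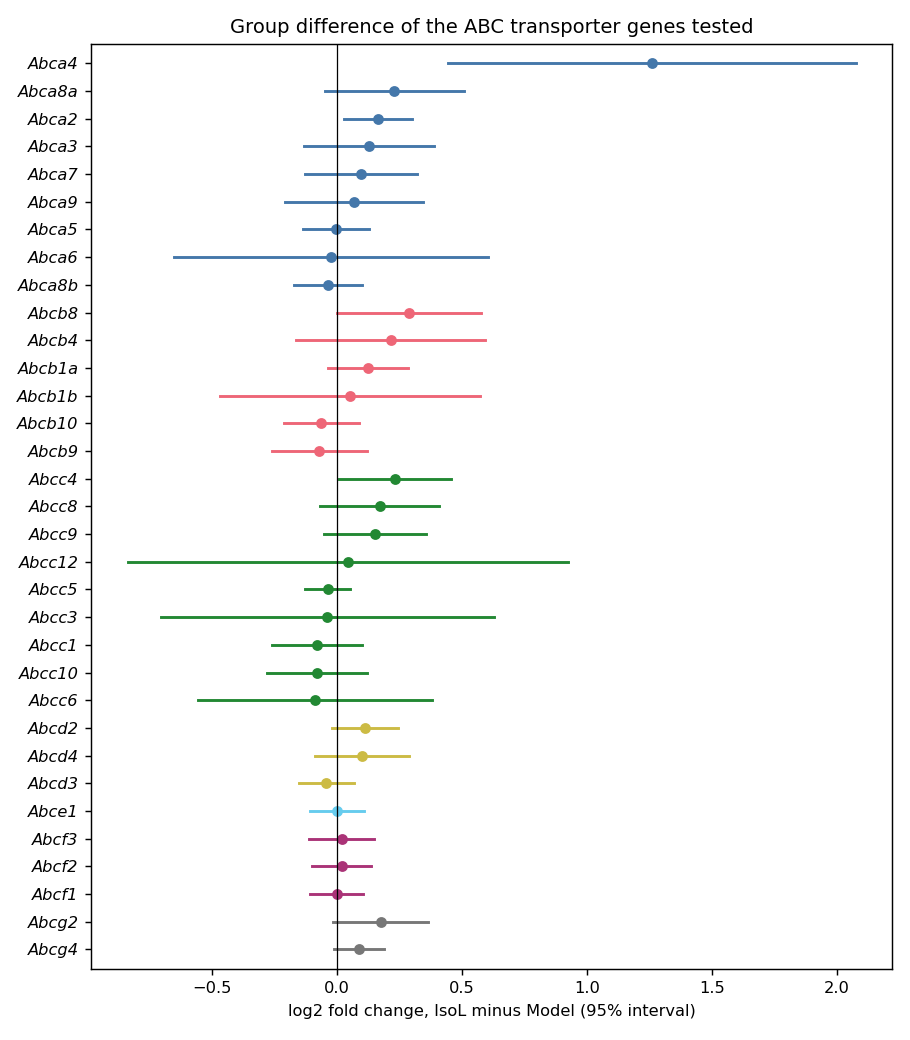
Log2 fold change of IsoL minus Model (x axis) with its 95% interval for 33 of the 35 ABC transporter genes tested, 1 row a gene, coloured and ordered by subfamily. Most points lie within 0.3 of 0; Abca4 lies at 1.26 with an interval of 0.45 to 2.08.

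The promoters of the 3 members with an unadjusted p under 0.05 are shown because these genes had the smallest p-values of the family, a share of its members that was below the share over all genes. The sequences are RefSeq's (GRCm38.p6), 250 bases before to 50 after a gene start, 5′ to 3′ on the gene's strand. Capitals mark matches, on either strand, to any of 6 motifs. The core bound by the dioxin receptor AHR was searched as GCGTG and the antioxidant response element as TGACNNNGC. The promoter elements were the box written CCAAT, the box bound by Sp proteins, written GGGCGG, and the TATA box, written TATAAA. The site of OTX and CRX homeodomain proteins was written TAATCC. The motifs were chosen after the values were seen. Adjoining matches run together in the Abcc4 sequence.
Abca4, chr3:122044210-122044509, plus strand: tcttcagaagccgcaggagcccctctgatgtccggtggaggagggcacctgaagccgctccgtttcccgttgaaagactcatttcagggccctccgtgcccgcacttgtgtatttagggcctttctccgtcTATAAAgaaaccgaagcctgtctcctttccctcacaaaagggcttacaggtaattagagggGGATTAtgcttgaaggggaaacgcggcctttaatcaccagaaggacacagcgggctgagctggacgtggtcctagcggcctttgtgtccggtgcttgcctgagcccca
Abca2, chr2:25428349-25428648, plus strand: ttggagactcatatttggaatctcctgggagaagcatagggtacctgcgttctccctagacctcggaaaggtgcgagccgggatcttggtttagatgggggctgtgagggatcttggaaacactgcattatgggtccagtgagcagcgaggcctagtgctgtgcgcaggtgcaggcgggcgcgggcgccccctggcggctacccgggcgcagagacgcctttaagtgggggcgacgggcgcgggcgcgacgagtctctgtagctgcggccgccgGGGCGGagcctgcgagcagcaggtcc
Abcc4, chr14:118706170-118706469, minus strand: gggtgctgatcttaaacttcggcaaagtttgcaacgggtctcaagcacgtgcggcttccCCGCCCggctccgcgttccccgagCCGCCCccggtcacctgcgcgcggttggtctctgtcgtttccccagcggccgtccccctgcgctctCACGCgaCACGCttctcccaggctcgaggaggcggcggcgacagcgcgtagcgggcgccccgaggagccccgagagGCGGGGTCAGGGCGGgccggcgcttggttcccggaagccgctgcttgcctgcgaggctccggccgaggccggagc
The Abca4 window held a TATAAA match that starts 119 bases before the gene start (13.6% of all 32851 promoter windows hold TATAAA). On the minus strand it held a TAATCC match that starts 58 bases before the gene start. TAATCC is held by 7.06% of all windows and by 6 of the 44 windows of 37 members. The Abcc4 window held GCGTG at 2 places (32.4% of all windows hold it), a TGACNNNGC match (12.4%) and GGGCGG at 3 places (35.7%); a second Abcc4 start in the table is not shown. The Abca2 window held GGGCGG once. A match is a description of these letters and not a site shown to be bound.

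Levels differed widely between members. On the FPKM scale (counts scaled for gene length and library total, as deposited), 12 members had a mean of at least 10 over the 8 libraries, 16 lay between 1 and 10, and 20 were under 1. The highest was Abca2, at 52.5 ± 1.19 FPKM in IsoL and 46.8 ± 4.67 FPKM in Model (SD, n = 4 each). It was followed by Abcf2 (33.0 ± 1.15 FPKM in IsoL and 32.5 ± 1.68 FPKM in Model) and Abcc5 (25.3 ± 0.876 FPKM in IsoL and 25.9 ± 0.703 FPKM in Model). Of the family's summed FPKM, subfamily A made up 27.3%, F 22.8%, B 16.0%, C 12.2%, D 9.70%, E 6.57% and G 5.48%. The family as a whole summed to 314.8 ± 2.27 FPKM in IsoL and 302.4 ± 11.1 FPKM in Model, and the lowest sum, 287.6 FPKM, was that of Model 2.

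**Figure D2:**
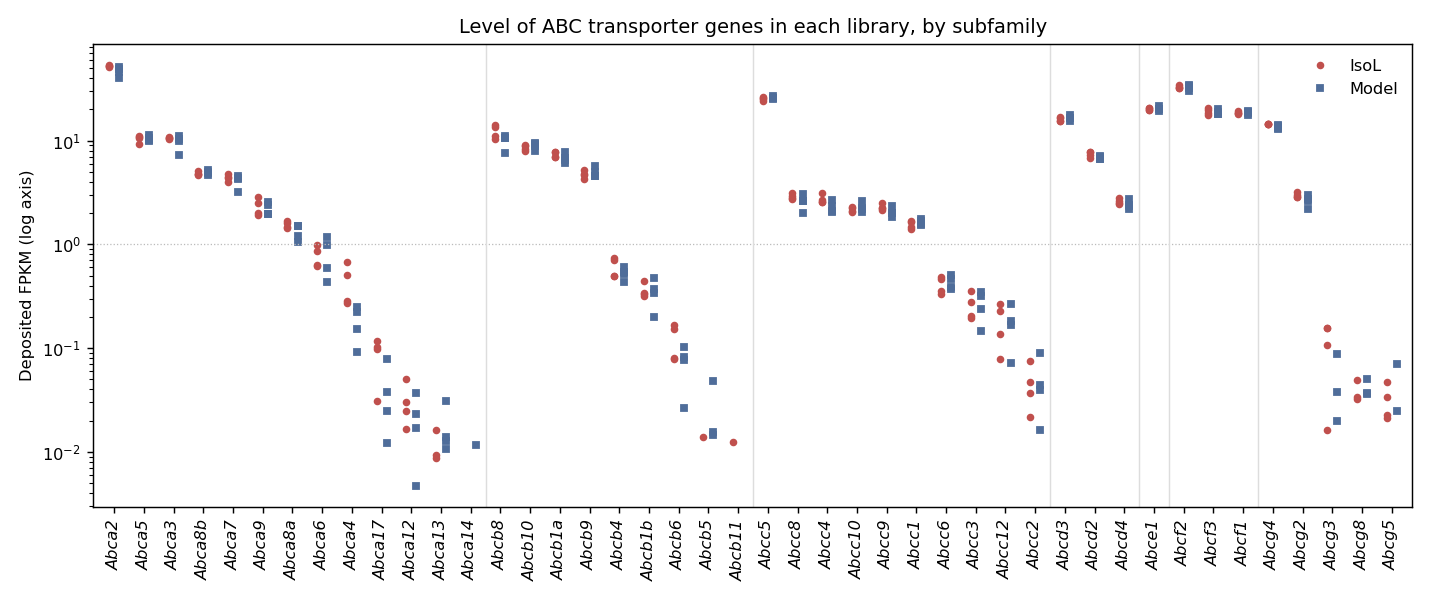
Deposited FPKM on a log axis (y) for the ABC transporter genes (x, by subfamily, highest first), with IsoL libraries as circles and Model libraries as squares. Libraries at 0 are not drawn, and Abca15 and Abca16, at 0 in all 8, are left out, as are 2 members not reported; the range runs from Abca2 at about 50 FPKM to genes under 0.1 FPKM, with the groups close together at nearly every gene above 1 FPKM.

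The drug efflux pumps showed no group difference that passed. Of 9 listed pump genes 8 were tested, 0 rose and 0 fell, 4 log2 changes were above and 4 below 0, and their median was 0.01. Their summed level was 384 to 409 CPM in IsoL and 381 to 412 CPM in Model, and the ranges overlapped. Abcc5 alone made up 270 of a mean sum of 395 CPM in IsoL, and 277 of 395 CPM in Model, so the sum says little about the other pumps. Only Abcc4 had an unadjusted p under 0.05.

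Abcb1a encodes the main P-glycoprotein of mouse brain capillaries, which expels a wide range of lipophilic drugs (chromosome 5, 8710077 to 8798575; coordinates are the authors', on a build that the labels do not name). It was read at 43.1, 38.6, 37.8 and 42.3 CPM in IsoL, against 33.9, 35.5, 41.8 and 37.3 CPM in Model. The groups overlapped, with Model 3 above IsoL 2 and IsoL 3. The log2 change was 0.12 (SE 0.08, 95% interval -0.04 to 0.29, edgeR adjusted p = 0.506), or a fold of 0.974 to 1.22. With Model 3 left out the log2 change was 0.19. Of 15 endothelial markers none passed, 5 log2 changes were above and 10 below 0, and their sum was 558 to 610 CPM in IsoL and 549 to 611 CPM in Model. Groups did not overlap for 1 of the 15 markers, where 8.48% of all genes tested had such groups. This marker was Mfsd2a, the lipid carrier of brain endothelium, at 25.2 to 28.2 CPM in IsoL and 22.6 to 23.3 CPM in Model (log2 0.21, edgeR adjusted p = 0.213). The summed level of the endothelial markers was lowest in Model 1 (549 CPM) and highest in Model 3 (611 CPM), the libraries that were also lowest and highest for Abcb1a among Model.

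Abcb1b, the second mouse P-glycoprotein gene, better known from adrenal gland, lies next to Abcb1a and was 20.2 times lower in mean FPKM (0.351 FPKM against 7.08 FPKM for Abcb1a). It had 2.70, 2.67, 2.53 and 3.48 CPM in IsoL, against 1.61, 3.75, 2.92 and 2.72 CPM in Model, with Model libraries both below and above all IsoL libraries (edgeR adjusted p = 0.949). Of the 50-base stretches in Abcb1b transcripts (GENCODE M21), 18.1% also occur in other members, nearly all of them in Abcb1a, as do a like share of those of Abcb1a. Reads could be split between them, and both values are uncertain for that reason. Abcb4, the phosphatidylcholine flippase of bile that completes this cluster, stood at 5.68 ± 1.19 CPM in IsoL and 4.91 ± 0.717 CPM in Model (SD, n = 4 each, edgeR adjusted p = 0.638).

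Abcg2 encodes the breast cancer resistance protein, the other main pump of brain capillaries. It was read at 26.1, 23.5, 23.1 and 24.2 CPM in IsoL, against 18.3, 22.1, 24.0 and 21.5 CPM in Model. Only Model 3 reached into the IsoL range. The log2 change was 0.17 (SE 0.09, 95% interval -0.01 to 0.36) and did not pass (edgeR adjusted p = 0.419), with 4 of 4 IsoL libraries above the Model mean of 21.5 CPM. Without Model 1, the lowest library, the log2 change was 0.11 (adjusted p = 0.614 in edgeR).

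Abcc4 encodes MRP4, a pump for cyclic nucleotides, prostaglandins and conjugated drugs found in choroid plexus and capillaries. Its values were 20.1, 16.3, 17.02 and 16.1 CPM in IsoL, against 13.5, 17.1, 14.9 and 13.6 CPM in Model. The highest value was that of IsoL 1, the library with the highest choroid plexus sum, and Model 2 lay above 3 of the 4 IsoL libraries. The log2 change was 0.23 (SE 0.10, 95% interval 0.01 to 0.45, edgeR adjusted p = 0.361). With IsoL 1 left out it was 0.16 (edgeR adjusted p = 0.649). With IsoL 3 and 4 only, a fit chosen after seeing the data, it was 0.16 (SE 0.12, edgeR adjusted p = 0.765). In that fit IsoL 3 still stood above Model in the choroid plexus sum, at 129 CPM against 76.6 to 80.3 CPM. The part of choroid plexus in the Abcc4 values was not tested.

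The other MRP genes did not pass. Abcc5, a cyclic nucleotide pump and the most abundant gene of subfamily C, had 276, 260, 266 and 278 CPM in IsoL, against 274, 272, 285 and 278 CPM in Model (log2 -0.04, 95% interval -0.13 to 0.05, edgeR adjusted p = 0.746), the smallest standard error of the family. Abcc1, which exports glutathione conjugates, averaged 23.4 ± 2.099 CPM in IsoL and 24.7 ± 1.69 CPM in Model (SD, n = 4 each; log2 -0.08, edgeR adjusted p = 0.728). Abcc10, a further MRP that has been tied to resistance to taxanes, averaged 14.8 ± 0.756 CPM in IsoL and 15.7 ± 1.64 CPM in Model (edgeR adjusted p = 0.752); its annotated end overlaps the opposite-strand gene Dlk2 by 51 bases. Abcc3, a pump of bile salts and glucuronides, had 1.47 ± 0.431 CPM in IsoL and 1.49 ± 0.502 CPM in Model (edgeR adjusted p = 0.972). Abcc2, the pump of the bile canaliculus, had 3, 7, 5 and 14 counts in IsoL and 2, 6, 11 and 5 in Model, and was too low to test.

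**Figure D3:**
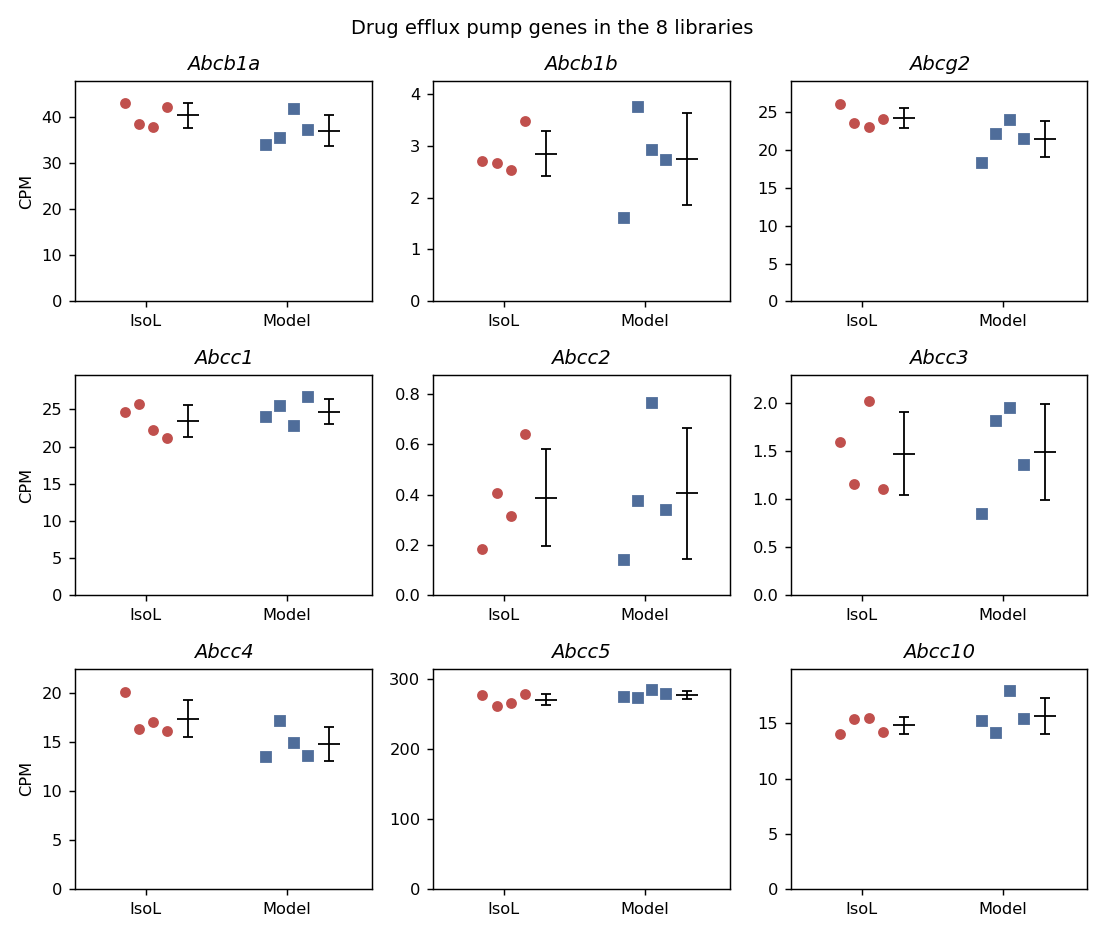
CPM (y axis, from 0) of the 9 drug efflux pump genes, 1 panel a gene, with the 4 IsoL libraries as circles left of the 4 Model libraries as squares and the mean and SD beside each group. The groups overlap in all 9 panels, including Abcb1a at 37.8 to 43.1 CPM in IsoL and 33.9 to 41.8 CPM in Model.

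In subfamily A, of 15 members 9 were tested, none passed, 6 log2 changes were above and 3 below 0, and the median was 0.10. The summed FPKM was 87.7 to 88.2 in IsoL and 69.6 to 87.3 in Model, with Model 2 the lowest.

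Abca4 encodes a flippase for retinylidene phosphatidylethanolamine known from photoreceptor discs, whose loss causes Stargardt disease in humans (chromosome 3, 121838092 to 121973772 in the deposited coordinates). It had 134, 105, 54 and 71 counts in IsoL, against 16, 48, 26 and 40 counts in Model, or 8.23, 6.09, 3.42 and 3.25 CPM in IsoL against 1.12, 3.004, 1.81 and 2.72 CPM in Model. Every IsoL library lay above every Model library, and IsoL 1 and IsoL 2 were the highest. The log2 change of 1.26 (SE 0.37, 95% interval 0.45 to 2.08) was the largest of the family and did not pass in edgeR (adjusted p = 0.188), whereas DESeq2 gave an adjusted p of 0.0236. Of the 35 members tested, 2 had groups that did not overlap (5.71%), against 8.48% of all genes tested (4.05% with IsoL higher and 4.42% with IsoL lower). Both members were higher in IsoL.

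The summed level of choroid plexus markers was also highest in IsoL 1 and 2. Of the 11 markers 8 were tested, none passed, 7 had log2 changes above 0 and their median was 1.66. In IsoL 4 the marker sum, Ttr and Prlr were below all 4 Model libraries. Abca4 was above them, as were the markers Otx2, Slc4a5, Folr1 and Aqp1. The other markers lay within the Model range. Prlr alone made up 39.1 of the 75.2 CPM of the IsoL 4 sum. Ttr, the transthyretin gene that defines this epithelium, was at 609, 521, 44.8 and 0.458 CPM in IsoL, against 1.19, 1.06, 4.59 and 2.44 CPM in Model. Slc4a5, a bicarbonate carrier of its apical membrane, was at 8.72, 9.28, 1.33 and 0.688 CPM in IsoL, against 0.489, 0.375, 0.417 and 0.611 CPM in Model. Otx2, a homeobox gene active in choroid plexus and retina, was at 19.0, 12.3, 10.7 and 15.0 CPM in IsoL, against 5.10, 9.39, 9.60 and 7.95 CPM in Model. None of the 11 markers was at 0 in all libraries. With IsoL 3 and 4 only, where the marker sum was 129 and 75.2 CPM, the log2 change of Abca4 against Model was 0.61 (SE 0.33, edgeR adjusted p = 0.653), a fit chosen after seeing the data. Left out singly, IsoL 1 gave a log2 change of 0.96 and Model 2 one of 1.46.

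**Figure D4:**
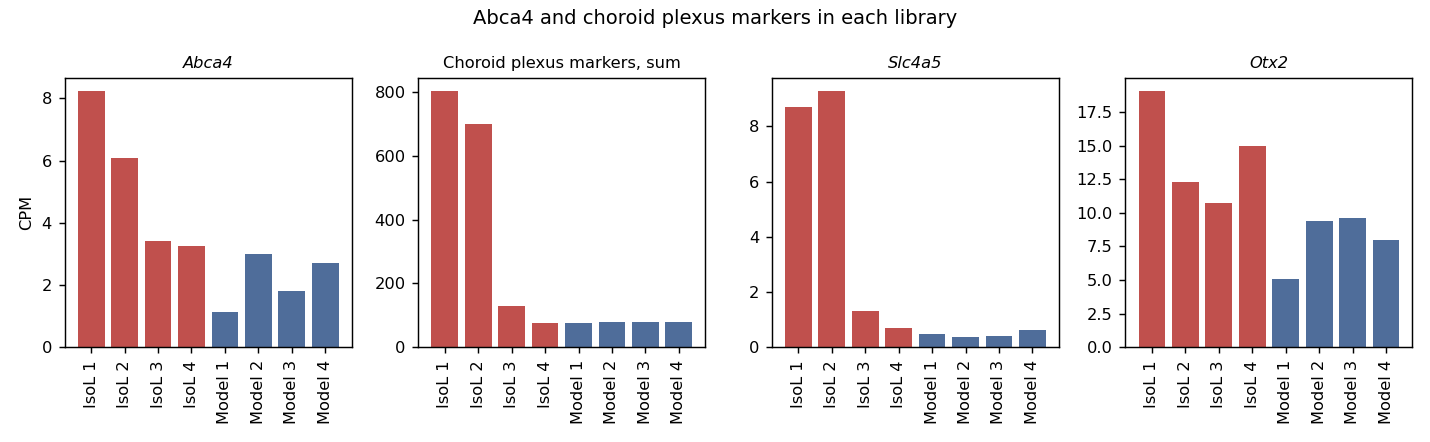
CPM (y axis, from 0) of Abca4, of the summed 11 choroid plexus markers, and of the markers Slc4a5 and Otx2 in each library, IsoL 1 to 4 (red) left of Model 1 to 4 (blue). Abca4 is highest in IsoL 1 and 2, where the marker sum is 802 and 701 CPM. In IsoL 4, with a sum of 75.2 CPM, Abca4 at 3.25 CPM lies above all 4 Model libraries, as do Slc4a5 and Otx2.

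Abca2, a lipid transporter of lysosomes that is abundant in oligodendrocytes, had 449, 443, 440 and 421 CPM in IsoL, against 390, 337, 423 and 415 CPM in Model. The ranges met at IsoL 4 and Model 3, and Model 2 was far the lowest. The log2 change was 0.16 (SE 0.06, 95% interval 0.03 to 0.30, edgeR adjusted p = 0.286), and 0.10 with Model 2 left out. Oligodendrocyte markers were of similar direction, with 10 of 12 log2 changes above 0, none passed, and a median of 0.11. Their sum was 15388 to 16983 CPM in IsoL and 15160 to 15764 CPM in Model. IsoL 1 was highest for both the sum and Abca2, but Model 2, the lowest for Abca2, had the highest sum of the Model libraries (15764 CPM). The part of these cells in the Abca2 difference was not tested.

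Model 2 was also the lowest library for Abca3 and Abca7. Abca3, the surfactant lipid transporter of lung, had 99.5, 102, 97.5 and 98.1 CPM in IsoL, against 99.997, 67.3, 92.4 and 104 CPM in Model (log2 0.13, edgeR adjusted p = 0.680), and its log2 change ran from 0.0083 to 0.20 with a library left out, lowest without Model 2. Abca7, a phospholipid transporter and Alzheimer disease risk gene in humans, had 30.1, 29.4, 26.8 and 31.6 CPM in IsoL, against 29.9, 21.3, 30.7 and 28.7 CPM in Model (edgeR adjusted p = 0.731). The 5 genes of the Abca5 cluster on chromosome 11 (Abca8b, Abca8a, Abca9, Abca6 and Abca5, 109823016 to 110228542) did not pass. For Abca5, the most abundant of them, the log2 change was -0.0044 (edgeR adjusted p = 0.982). Abca8a, whose transcripts share 1.81% of their 50-base stretches with Abca8b, averaged 9.69 ± 0.670 CPM in IsoL and 8.27 ± 1.37 CPM in Model (SD, n = 4 each, edgeR adjusted p = 0.474), while Abca8b averaged 35.8 ± 1.26 CPM in IsoL and 36.8 ± 2.05 CPM in Model (adjusted p = 0.840).

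Outside the pumps, subfamily B includes mitochondrial members, some with roles in haem metabolism. Abcb10, of the inner membrane in haem-making cells, averaged 37.0 ± 2.04 CPM in IsoL and 38.6 ± 2.78 CPM in Model (edgeR adjusted p = 0.739). Abcb8, part of a mitochondrial potassium channel complex, had 63.9, 49.1, 51.8 and 66.4 CPM in IsoL, against 36.9, 52.3, 49.4 and 50.9 CPM in Model. IsoL 1 and 4 were high and Model 1 was low, with the other 5 libraries between 49.1 and 52.3 CPM. The log2 change was 0.29 (SE 0.13, edgeR adjusted p = 0.379), and 0.19 without Model 1. Abcb9, a lysosomal peptide transporter, averaged 26.5 ± 2.12 CPM in IsoL and 27.8 ± 3.12 CPM in Model (edgeR adjusted p = 0.775). Of the 7 members of this subfamily tested, none passed and the median log2 change was 0.05.

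The channel-like members of subfamily C are the sulfonylurea receptors, which assemble with inward rectifier subunits into potassium channels that open when ATP is low. Abcc8, the neuronal and beta cell receptor SUR1, averaged 23.4 ± 1.36 CPM in IsoL and 20.8 ± 3.64 CPM in Model (SD, n = 4 each, edgeR adjusted p = 0.543), with the lowest value, 16.1 CPM, in Model 2. Abcc9, the receptor SUR2 of pericytes and muscle, had 18.8, 18.1, 18.7 and 20.6 CPM in IsoL, against 20.1, 16.6, 15.2 and 16.8 CPM in Model (log2 0.15, 95% interval -0.05 to 0.36, edgeR adjusted p = 0.519). Model 1 lay above 3 IsoL libraries. Their channel partners Kcnj11 and Kcnj8 had log2 changes of 0.10 and 0.09 (edgeR adjusted p = 0.645 and 0.880). Pericyte and smooth muscle markers summed to 346 to 418 CPM in IsoL and 345 to 402 CPM in Model. Across the 9 tested members of subfamily C, 4 log2 changes were above and 5 below 0, with a median of -0.04.

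Subfamily D brings fatty acids into peroxisomes, except for Abcd4, which works with Lmbrd1 in the lysosomal export of cobalamin. Abcd3, the major peroxisomal membrane protein PMP70, averaged 106 ± 4.002 CPM in IsoL and 109 ± 5.37 CPM in Model (SD, n = 4 each; log2 -0.04, edgeR adjusted p = 0.758). Abcd2, a peroxisomal carrier of very long-chain fatty acids, had 46.8, 41.1, 42.9 and 45.6 CPM in IsoL, against 42.9, 39.4, 41.3 and 39.8 CPM in Model (log2 0.11, edgeR adjusted p = 0.465). Abcd4 averaged 20.8 ± 1.30 CPM in IsoL and 19.4 ± 1.86 CPM in Model (edgeR adjusted p = 0.661), and the log2 change of Lmbrd1 was -0.0083 (adjusted p = 0.950).

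The soluble members did not pass either. Abce1, which recycles ribosomes after termination, had 120, 126, 123 and 118 CPM in IsoL, against 131, 120, 115 and 121 CPM in Model, with a 95% interval of the log2 change from -0.11 to 0.11. Abcf2 averaged 84.7 ± 3.54 CPM in IsoL and 83.6 ± 4.99 CPM in Model, and Abcf3 68.0 ± 4.31 CPM in IsoL and 67.1 ± 4.04 CPM in Model (SD, n = 4 each; edgeR adjusted p = 0.913 and 0.922). Abcf1, which assists translation initiation, averaged 81.9 ± 2.39 CPM in IsoL and 82.0 ± 3.41 CPM in Model (edgeR adjusted p = 0.994).

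In subfamily G the sterol transporter Abcg4, expressed in neurons and astrocytes, was the second gene with groups apart. It had 75.9, 75.3, 74.7 and 74.8 CPM in IsoL, against 68.9, 68.2, 73.5 and 72.1 CPM in Model. The IsoL libraries lay close together, and Model 3 came nearest to them. The log2 change was 0.09 (SE 0.05, 95% interval -0.01 to 0.19, edgeR adjusted p = 0.443). Astrocyte markers were of the same direction, with 9 of 10 log2 changes above 0 and none passed. They summed to 4661 to 4767 CPM in IsoL and 4033 to 4520 CPM in Model. Slc1a2 alone made up 2197 of a mean sum of 4730 CPM in IsoL, and 1924 of 4306 CPM in Model. Of the 10 neuron markers, 3 log2 changes were above and 7 below 0, and none passed. The part of either cell type in the Abcg4 values was not tested.

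The 13 members that were too low to test had 0 to 14 counts in any library. Abca15 and Abca16, which with Abca14 form a cluster on chromosome 7, had 0 counts in all 8 libraries, and 3 counts over the 8 libraries would be 0.0230 CPM. Abca14 and Abcb11, the bile salt export pump of liver, each had 1 count in all. Abcg5 and Abcg8, the paired sterol exporters of gut and liver, had 6 and 8 counts over the IsoL libraries and 4 and 7 over the Model libraries, and their annotated spans overlap on opposite strands by 6710 bases. Abca17, a rodent sperm gene beside Abca3, had 35 counts over the IsoL libraries and 13 over the Model libraries. Abcb6, a porphyrin transporter, had 44 over IsoL and 23 over Model, and Abcg3 had 28 over IsoL and 8 over Model. Abca12 had 32 over IsoL and 18 over Model. In the other direction, Abca13 had 13 over IsoL and 20 over Model, and Abcb5 had 1 over IsoL and 5 over Model. These sums are not scaled by library size, and the IsoL libraries had more counts on average. No test was made at such counts, and the CPM ranges of the groups overlapped for all 13.

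Genes that regulate or accompany drug transport did not pass either. Of 12 listed xenobiotic and hormone sensors, 9 were tested and none passed. All 9 log2 changes were below 0, with a median of -0.07, where 7334 of all 14536 genes tested were below 0. Taken singly, 0 of the tested sensors had groups that did not overlap, against 8.48% of all genes tested. The sum of the list was 365 to 382 CPM in IsoL and 392 to 397 CPM in Model, without overlap. Nr3c1 made up 165 of a mean sum of 372 CPM in IsoL, and 175 of 394 CPM in Model. The sensors with the lowest levels included Hnf4a and Nr1i3 (CAR), at 0 counts in all libraries, and Nr1i2 (PXR), at 0 to 0.127 CPM. CAR and PXR are the receptors through which drugs induce these pumps in liver. Ahr, the dioxin receptor, had 9.27, 7.88, 10.9 and 8.94 CPM in IsoL, against 11.5, 12.4, 9.46 and 11.3 CPM in Model (log2 -0.28, edgeR adjusted p = 0.358). Nr3c1, the glucocorticoid receptor gene, had the highest level of the list, at 158 to 169 CPM in IsoL and 164 to 183 CPM in Model (edgeR adjusted p = 0.473). Of 14 drug uptake carriers 13 were tested, none passed, and 5 log2 changes were above and 8 below 0; Slco1a4, the main organic anion carrier of the barrier, averaged 93.8 ± 2.53 CPM in IsoL and 95.7 ± 6.75 CPM in Model (SD, n = 4 each, edgeR adjusted p = 0.858). Of 10 partner genes of ABC proteins none passed, with 5 log2 changes on each side of 0.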

How the data were processed

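Per the file headers, the authors gave raw counts and FPKM for each gene in 8 libraries. The submitters' processing notes name fastp 0.22.0, HISAT2 2.1.0 and HTSeq 0.9.1; build, annotation and strand setting were not given in the sources used here. Recomputing the deposited FPKM from counts and gene length left relative differences of at most 1.11e-09 (genes over 200 counts).

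Groups came from sample titles. Counts were filtered (filterByExpr, 14536 genes kept), TMM-scaled and tested with edgeR 4.0.16 (R 4.3.3), robust quasi-likelihood, Benjamini-Hochberg over all genes tested, threshold 0.05. SE is the absolute log2 change over the square root of F. CPM uses TMM library sizes. Alternatives were DESeq2 1.42.0 (also its size factors), limma 3.58.1 voom, no filter, a replicate block and each library left out. In data simulated for IsoL minus Model (14534 genes) edgeR recovered 44% of 50 genes with a log2 change of 0.32, 86% of 50 genes changed 1.5-fold and 100% of 50 changed 2-fold. The changed genes were drawn only from those above a minimum mean CPM, which Abca4, Abcb1b and Abcc3 did not reach. Spread was set by level alone, with no library made to stand apart. These shares therefore do not hold for members with low counts. Figures used matplotlib 3.10.9.

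The members and lists were chosen with earlier results of these data known. Values of 2 members, which count in all totals, are not reported here. The other 20 named genes are the pumps, members whose groups do not overlap, and per subfamily the smallest 2 p and the highest FPKM; other genes named were chosen after their values were seen.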

Additional observations from a re-analysis of the deposited data

How the results depend on the processing

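The count of ABC transporter genes that passed was 0 under every alternative except the DESeq2 test, where it was 1 (Abca4, adjusted p = 0.0236; the range over its 14 alternatives was 0.0236 to 0.653). Over all genes the count of 40 became 74 with no filter on low counts, 311 with DESeq2, 175 with limma voom and 17 with the replicate block, and ran from 6 to 146 with a library left out, lowest without IsoL 2 or Model 4 and highest without Model 2; the cause was not tested. The same numbers in both groups were not taken to pair the libraries. Deviations of same-numbered libraries correlated at 0.0199 to 0.0696, and those of differently numbered ones at -0.139 to 0.143. These values cannot exclude that libraries shared a batch. The replicate block called 0 members. The median log2 change of the members, 0.04, ran from 0.00832 without Model 2 to 0.10 without Model 3. Members with groups that do not overlap numbered 2 to 6 with a library left out, 6 without Model 3 and 4 without Model 1, and 7 with IsoL 3 and 4 only (a choice made after seeing the data), where fewer libraries are compared; the shares of all genes under these choices were not computed. The 13 members with few counts were not tested, and whether depth accounts for this was not tested.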

Other observations

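Spread between libraries of a group also differed among members. The coefficient of variation of Abcg4 was 0.716% over the IsoL libraries and 3.55% over the Model libraries, and that of Abca3 was 2.06% in IsoL and 18.1% in Model, where Model 2 was low. At the 1236, 1298, 1181 and 1632 counts of Abcg4 in IsoL, counting error alone would on average give more than 0.716%. Whether the groups differ in spread was not tested. Members lay in 8 neighbourhoods with under 200000 bases between them, among them Abcc5 with Abcf3 on chromosome 16 and Abcb8 with Abcf2 on chromosome 5. For Abcb8 and Abcf2 the log2 change was 0.29 and 0.02 in that order, and neither passed in edgeR (adjusted p = 0.379 and 0.913).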
